A study of Mus musculus with 6 samples.

Results

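The collagen genes were followed here through cortical cells of the adult mouse that were sorted by a genetic lineage label. The members were all genes of the deposited count tables whose symbol reads Col, a number, the letter a and a number. This rule gave 44 of the 23494 genes of the series. All 44 were present in the tables of the NG2 and Tbx18 lines, and 42 in the table that joins both naive libraries. The cells came from mice aged 3 to 4 months, either Tbx18-CreERT2/Ai14-flx (Tbx18 line) or NG2-Cre-ERT2/Ai14-flx (NG2 line), in which tamoxifen switches on tdTomato (tdT) in cells that use the NG2 or the Tbx18 promoter and in all descendants of those cells. Tamoxifen was given 7 days before injury. The cortex was then left uninjured (naive), injected with saline (physical injury) or injected with ET-1 and L-NAME, which constrict vessels and block nitric oxide synthesis (ischemic injury), and injured tissue was collected 3 days later. Live tdT+ cells were sorted and profiled on the 10x Genomics 3′ platform, 1 library per line and condition, each pooled from several animals of both sexes. With 1 library per group there is no replicate, so no difference between groups below carries a test. Intervals are exact Poisson or binomial intervals at 95%, and cover counting error only.

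Collagens are secreted or membrane-bound proteins whose α-chains wind into a helix. Fibrillar collagens such as collagens I, III and V build the fibrils of connective tissue, and collagen IV forms the sheet-like network of basement membranes. FACIT collagens (fibril-associated collagens with interrupted triple helices) sit on fibrils, multiplexins such as collagen XVIII sit in or beside basement membranes, and transmembrane collagens stay anchored in the cell surface. In the brain, a shared basement membrane lies around endothelial cells and pericytes, smooth muscle cells coat arterioles, and fibroblasts of the meninges and perivascular spaces are the usual source of collagen fibrils. Pericytes are mural cells of capillaries, OPCs are oligodendrocyte precursor cells, OLs are oligodendrocytes, and RGPs are the cells that the study named radial glial precursors.

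The NG2 line held 4306 naive, 2563 physical injury and 3586 ischemic injury cells, and the Tbx18 line 686, 3845 and 2047. A library held between 3153996 and 54276245 unique molecular identifiers (UMIs, each 1 counted molecule), and collagens took 0.0955% to 0.185% of them. Between 35 and 44 of the collagens had a count in a library. Only 30 cell barcodes were shared over all pairs of libraries, at most 5 in a pair. Levels are CPM (the counts of a gene in 1000000 UMIs) over all cells of a class in a library. Because a 3′ library gives 1 tag per transcript, levels of long and short genes were compared without scaling by length.

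Classes follow the deposited clusters, checked against marker genes. The pericyte marker list summed to 36351 to 37559 CPM in NG2 pericytes and to 19249 to 31057 CPM in Tbx18 pericytes, and endothelial, smooth muscle, OPC, OL and fibroblast classes were led by their own markers in every library. RGPs carried radial glia markers at 5784 and 7898 CPM and OPC markers at 8889 and 5256 CPM after physical and ischemic injury, so that OPC markers led in the physical injury library. Cluster 4 of the Tbx18 line kept its number, since no single list described it. Its injured cells held fibroblast markers at 1552 and 1287 CPM, smooth muscle markers at 4735 and 5724 CPM and myeloid markers at 1256 and 1440 CPM. These lists summed to 34668, 37022 and 23297 CPM in the fibroblast, smooth muscle and myeloid classes after physical injury. Naive cells of cluster 4 held pericyte markers at 16100 CPM. The naive Tbx18 cells of the myeloid cluster carried pericyte markers at 21279 CPM and entered no comparison. Of naive Tbx18 endothelial cells, 119 of 159 carried at least 2 markers of another class, against 460 of 1788 after physical and 106 of 1488 after ischemic injury. In the NG2 line, 76 of 101 naive, 234 of 404 physical injury and 243 of 453 ischemic injury endothelial cells did. The clusters were made from expression, collagens included, so comparisons between classes are descriptions. Classes under 20 cells in a library, such as the 17 naive RGPs and the 10 ischemic fibroblasts, were compared only where stated.

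Sequences upstream of starts of 6 collagen genes are shown, since the collagen IV genes lie in head-to-head pairs whose members were read out side by side below, and Col3a1, Col11a1 and Col25a1 are among the genes that differed by condition or class. They were taken from RefSeq on GRCm38.p6, the build of the counts being mm10 (GRCm38), and end at the base before a transcript start. Gene starts come from the GENCODE M21 annotation. The Col4a4 and Col4a5 windows were cut at these GENCODE starts. The Col4a6, Col3a1 and Col11a1 windows end before a start that RefSeq and GENCODE M21 share. The Col25a1 window lies upstream of a RefSeq start but inside the gene by GENCODE M21, which starts it at 130131501 of chromosome 3, and overlaps no annotated exon. Col4a1 on the minus strand of chromosome 8 starts at 11312826 and Col4a2 on the plus strand at 11312805, so that their first exons share 22 bases. Col4a4 (minus strand, start 82586849) and Col4a3 (plus strand, start 82586921) of chromosome 1 have 71 bases between their starts, all of which are shown on the Col4a4 strand. Col4a6 (minus strand, start 141474076) and Col4a5 (plus strand, start 141475385) of chromosome X lie 1308 bases apart, and the window next to each start is shown. Capitals mark the CCAAT box, the TATAAA element or the GGGCGG box on either strand.
Col4a4, chr1:82586850-82586920, minus strand: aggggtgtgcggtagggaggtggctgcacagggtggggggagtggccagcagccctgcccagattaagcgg
Col4a6, chrX:141474077-141474326, minus strand: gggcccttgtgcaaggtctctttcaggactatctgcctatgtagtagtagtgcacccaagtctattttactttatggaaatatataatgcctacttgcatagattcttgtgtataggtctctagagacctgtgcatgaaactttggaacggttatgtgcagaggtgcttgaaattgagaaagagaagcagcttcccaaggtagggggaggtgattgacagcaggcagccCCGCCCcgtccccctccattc
Col4a5, chrX:141475169-141475384, plus strand: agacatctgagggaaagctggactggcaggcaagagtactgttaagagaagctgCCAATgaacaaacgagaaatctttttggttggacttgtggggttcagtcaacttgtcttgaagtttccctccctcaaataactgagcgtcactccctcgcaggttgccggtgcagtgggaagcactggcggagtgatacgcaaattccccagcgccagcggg
Col3a1, chr1:45311288-45311537, plus strand: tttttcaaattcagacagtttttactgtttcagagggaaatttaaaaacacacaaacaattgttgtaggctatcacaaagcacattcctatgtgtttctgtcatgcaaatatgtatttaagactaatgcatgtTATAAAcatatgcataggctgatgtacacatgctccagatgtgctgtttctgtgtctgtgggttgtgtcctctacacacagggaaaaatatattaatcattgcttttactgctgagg
Col11a1, chr3:114030290-114030539, plus strand: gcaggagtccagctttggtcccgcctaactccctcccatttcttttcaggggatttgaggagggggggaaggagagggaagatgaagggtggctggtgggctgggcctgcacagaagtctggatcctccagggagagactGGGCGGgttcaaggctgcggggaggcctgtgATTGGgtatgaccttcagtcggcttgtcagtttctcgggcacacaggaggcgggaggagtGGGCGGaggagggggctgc
Col25a1, chr3:130180595-130180844, plus strand: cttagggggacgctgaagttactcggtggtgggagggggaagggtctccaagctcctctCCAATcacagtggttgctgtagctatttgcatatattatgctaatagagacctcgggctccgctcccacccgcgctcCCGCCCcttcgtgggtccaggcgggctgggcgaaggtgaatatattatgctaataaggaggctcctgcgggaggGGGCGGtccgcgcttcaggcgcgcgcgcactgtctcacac
The 71 bases between Col4a4 and Col4a3 held none of the 3 motifs, which stand in 13.3%, 4.41% and 20.7% of 32851 promoter windows shortened to the same length. The Col4a5 window of 216 bases held 1 CCAAT, as did 30.5% of windows of that length. Of the 250-base windows, Col4a6 held 1 GGGCGG, Col3a1 1 TATAAA, and Col11a1 and Col25a1 each 1 CCAAT and 2 GGGCGG. Of all windows of 250 bases, 33.8% held CCAAT, 12.4% TATAAA and 32.7% GGGCGG. A match describes letters and shows no binding.

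Collagen transcripts made up very different totals in the classes. Among NG2 cells, mesenchymal-like pericytes summed to 3665, 5777 and 4382 CPM of collagen in the naive, physical and ischemic libraries, pericytes to 1933, 2213 and 2167 CPM, smooth muscle cells to 1536, 1726 and 1585 CPM, and endothelial cells to 1160, 1088 and 1735 CPM. OPCs held 553.7, 487.7 and 944.1 CPM and OLs at most 218.7 CPM. Vascular cells were thus above glial cells in every library. In the Tbx18 line, the 116 fibroblasts of the physical injury library held 9783 CPM, more than any class of 20 or more cells in either line. Cluster 4 held 3433 and 4955 CPM in the injured libraries, and 1665 CPM in the naive library, whose cells in this cluster carried pericyte markers. Tbx18 pericytes held 2241, 2521 and 3159 CPM.

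The make-up differed as much as the total. Collagen IV took 84.9% to 93.5% of collagen UMIs in endothelial cells of both lines and 72.8%, 73% and 73.3% in NG2 pericytes. Fibrillar collagens took 20.9%, 20.9% and 21% in NG2 pericytes, a split that held in all 3 conditions. In Tbx18 pericytes collagen IV took 71.8% in the naive library and 59% and 58.4% after physical and ischemic injury. Fibrillar collagens took 20.2%, 29.1% and 30.5% there and multiplexins 0.3%, 4.76% and 4.67%. In the same cells endothelial markers summed to 167, 1039 and 1379 CPM and smooth muscle markers to 1667, 5778 and 2792 CPM. Mesenchymal-like cells were kept apart from pericytes in the NG2 line only. The part of such cells and of these markers in the Tbx18 shares was not tested. Injured cluster 4 held 5.18% and 4.26% collagen IV beside 39% and 69.1% fibrillar collagen. Fibroblasts spread over all groups, with 39.1% fibrillar, 25.9% collagen IV and 11.5% multiplexins. FACIT collagens set OPCs apart from pericytes and endothelial cells, at 33.7% to 45.4%. Fibrillar collagens took 42.1% and 44.9% in RGPs, more than in pericytes. The fibrillar gene Col11a1 was highest in OPCs, at 404 CPM after ischemic injury, and the fibrillar share of OPCs was not compared here.

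**Figure D1:**
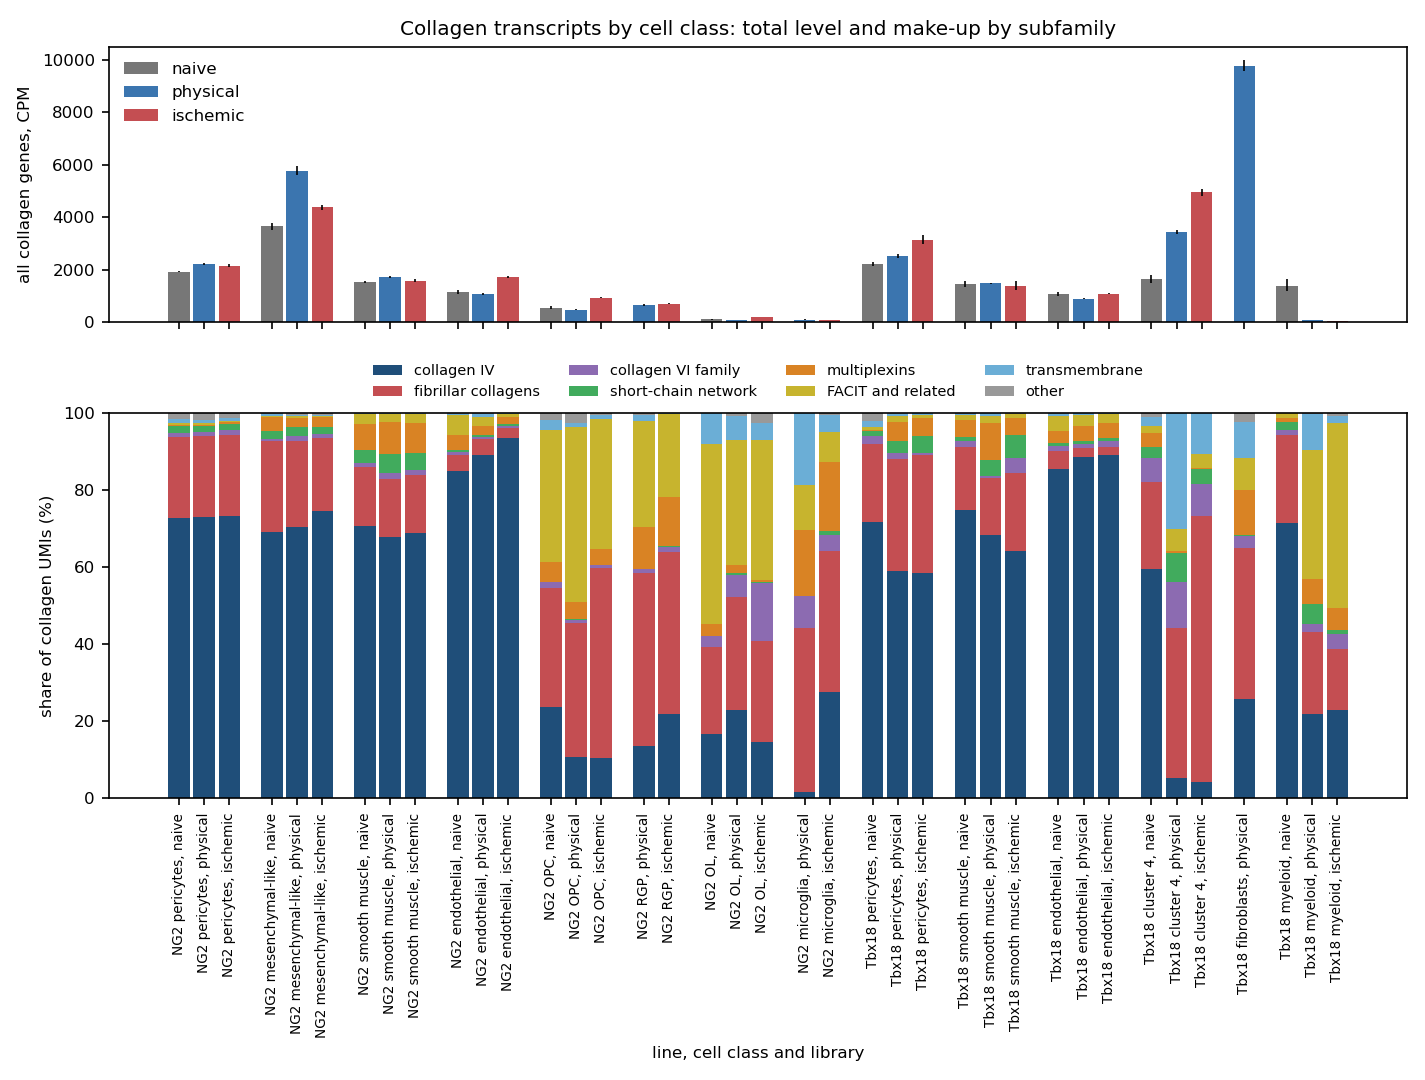
Total collagen level (upper bars, CPM) and the percent of collagen UMIs in each subfamily (lower stacked bars) for each class shown and library with 20 or more cells (shallow pericyte cluster left out). Physical injury fibroblasts have the tallest bar at 9783 CPM, endothelial bars are 84.9% to 93.5% collagen IV, and the injured cluster 4 bars hold 5.18% and 4.26% collagen IV.

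Of the 44 genes, 31 reached 50 CPM in at least 1 class and library with 20 or more cells. The other 13 were Col2a1, Col6a4, Col6a5, Col6a6, Col8a2, Col9a1, Col9a2, Col10a1, Col14a1, Col17a1, Col19a1, Col24a1 and Col28a1. The map of levels shows that each class drew on its own subset of the 31.

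**Figure D2:**
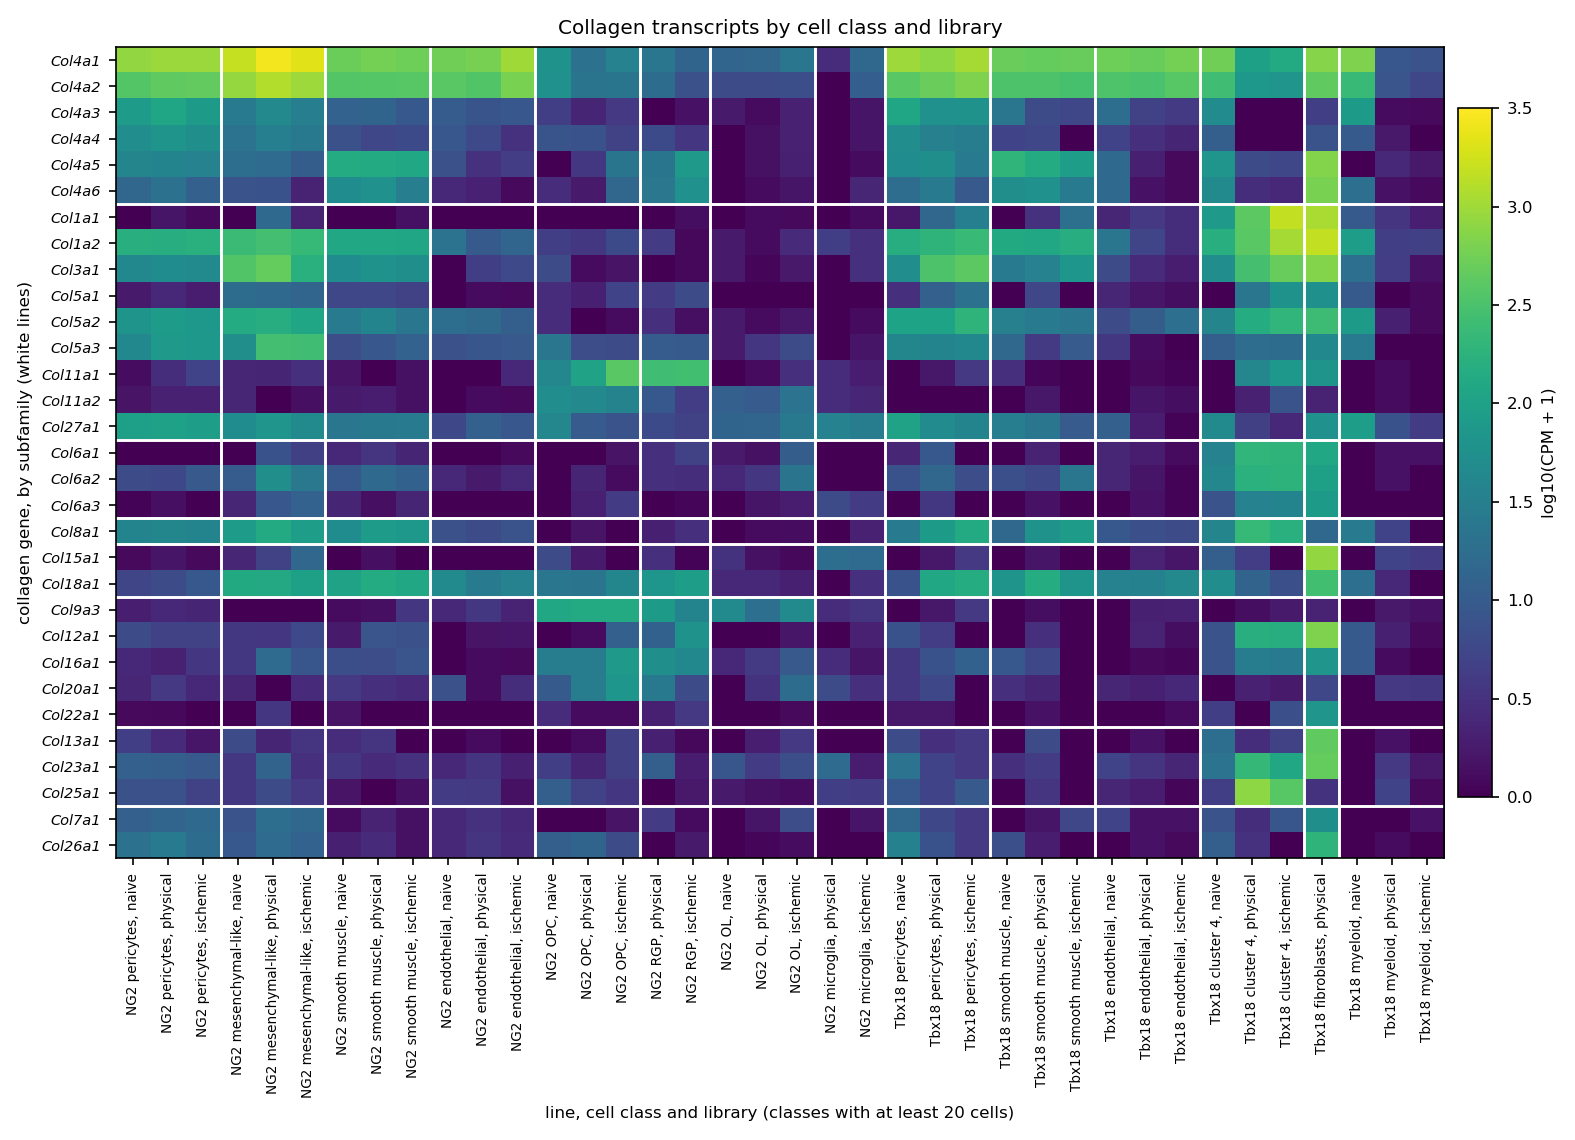
Levels of the 31 collagen genes that reached 50 CPM, as log10(CPM + 1), by class and library with 20 or more cells (shallow pericyte cluster left out), with genes in rows grouped by subfamily. Col4a1 and Col4a2 are high in all mural and endothelial columns, and Col12a1, Col13a1, Col15a1 and Col23a1 are high in the fibroblast column.

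Col4a1 and Col4a2, the chains of the collagen IV network found in nearly all basement membranes, were the most abundant collagens of mural and endothelial cells. Col4a1 stood at 853, 947 and 945 CPM in naive, physical and ischemic NG2 pericytes, and Col4a2 at 370, 436 and 461 CPM. Mesenchymal-like pericytes were higher in each library, with Col4a1 at 1578, 2740 and 2222 CPM and Col4a2 at 885, 1235 and 974 CPM. Smooth muscle and endothelial cells of both lines held Col4a1 between 471 and 994 CPM. Both chains stayed together. The ratio of Col4a1 to Col4a2 counts was 2.3, 2.17 and 2.05 in NG2 pericytes, 1.42, 1.52 and 1.35 in NG2 smooth muscle cells, and 1.56, 1.56 and 1.5 in Tbx18 endothelial cells. Naive OPCs carried Col4a1 at 61.5 CPM against 19.8 and 34.9 CPM in the injured libraries, beside the pericyte gene Vtn at 1039, 116 and 127 CPM. The part of pericyte RNA in these values was not tested.

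Col4a3 and Col4a4, chains of the collagen IV network best known from kidney and lung, were highest in pericyte clusters. Col4a3 stood at 82.8, 112 and 80.4 CPM in NG2 pericytes, 27.1, 43.4 and 30.4 CPM in mesenchymal-like pericytes, and 11.6, 12.4 and 8.22 CPM in smooth muscle cells. Col4a4 stood at 50.9, 63.6 and 55.2 CPM in NG2 pericytes and at 4.53 to 6.43 CPM in smooth muscle cells. The ratio of Col4a3 to Col4a4 in NG2 pericytes was 1.63, 1.76 and 1.46. Col4a3 was also among the leading genes of 1 of the 3 pericyte clusters of the NG2 line, at 109.7, 141.7 and 100.5 CPM, against 73.2, 99 and 76.3 CPM and 66.7, 77.9 and 61.9 CPM in the other two. A further pericyte cluster of the NG2 line, kept apart for its shallow cells (44, 23 and 43 cells with median depths of 1929, 2554 and 2061 UMIs), held the highest values, from few counts. Col4a3 was 224 CPM (143 to 333, 24 counts), 109 CPM (43.7 to 224, 7 counts) and 120 CPM (62.2 to 210, 12 counts) there, and Col4a4 reached 93.1 CPM (34.2 to 203, 6 counts) after physical injury. Pericyte clusters thus stood above mesenchymal-like, smooth muscle and endothelial cells of the NG2 line in Col4a3. In Tbx18 pericytes Col4a3 was 112 CPM in the naive library and 57.3 and 59.6 CPM after injury.

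Col4a5 and Col4a6, which join in basement membranes around smooth muscle, had another order. Col4a5 was 142, 137 and 121 CPM in NG2 smooth muscle cells against 37.7, 37.1 and 34.5 CPM in pericytes and 2.17 to 6.27 CPM in endothelial cells. Col4a6 was 49.1, 57.2 and 30.3 CPM in NG2 smooth muscle cells and 13.4, 19.8 and 10.8 CPM in pericytes. The highest values were those of physical injury fibroblasts, with Col4a5 at 714 and Col4a6 at 619 CPM. In these fibroblasts, Col4a5 counts were 0.964 of Col4a1 counts, compared with 0.276, 0.237 and 0.227 in NG2 smooth muscle cells and 0.0443, 0.0392 and 0.0365 in NG2 pericytes. In ischemic RGPs the order of the chains was turned, with 6.3 times as many Col4a5 as Col4a1 counts (5.39 to 7.4), while physical injury RGPs had 21 and 22 counts. Of the 3 pairs, Col4a1 and Col4a2 were thus found wherever there was a vascular class, Col4a3 and Col4a4 mostly in pericytes, and Col4a5 and Col4a6 in smooth muscle cells, fibroblasts and ischemic RGPs.

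**Figure D3:**
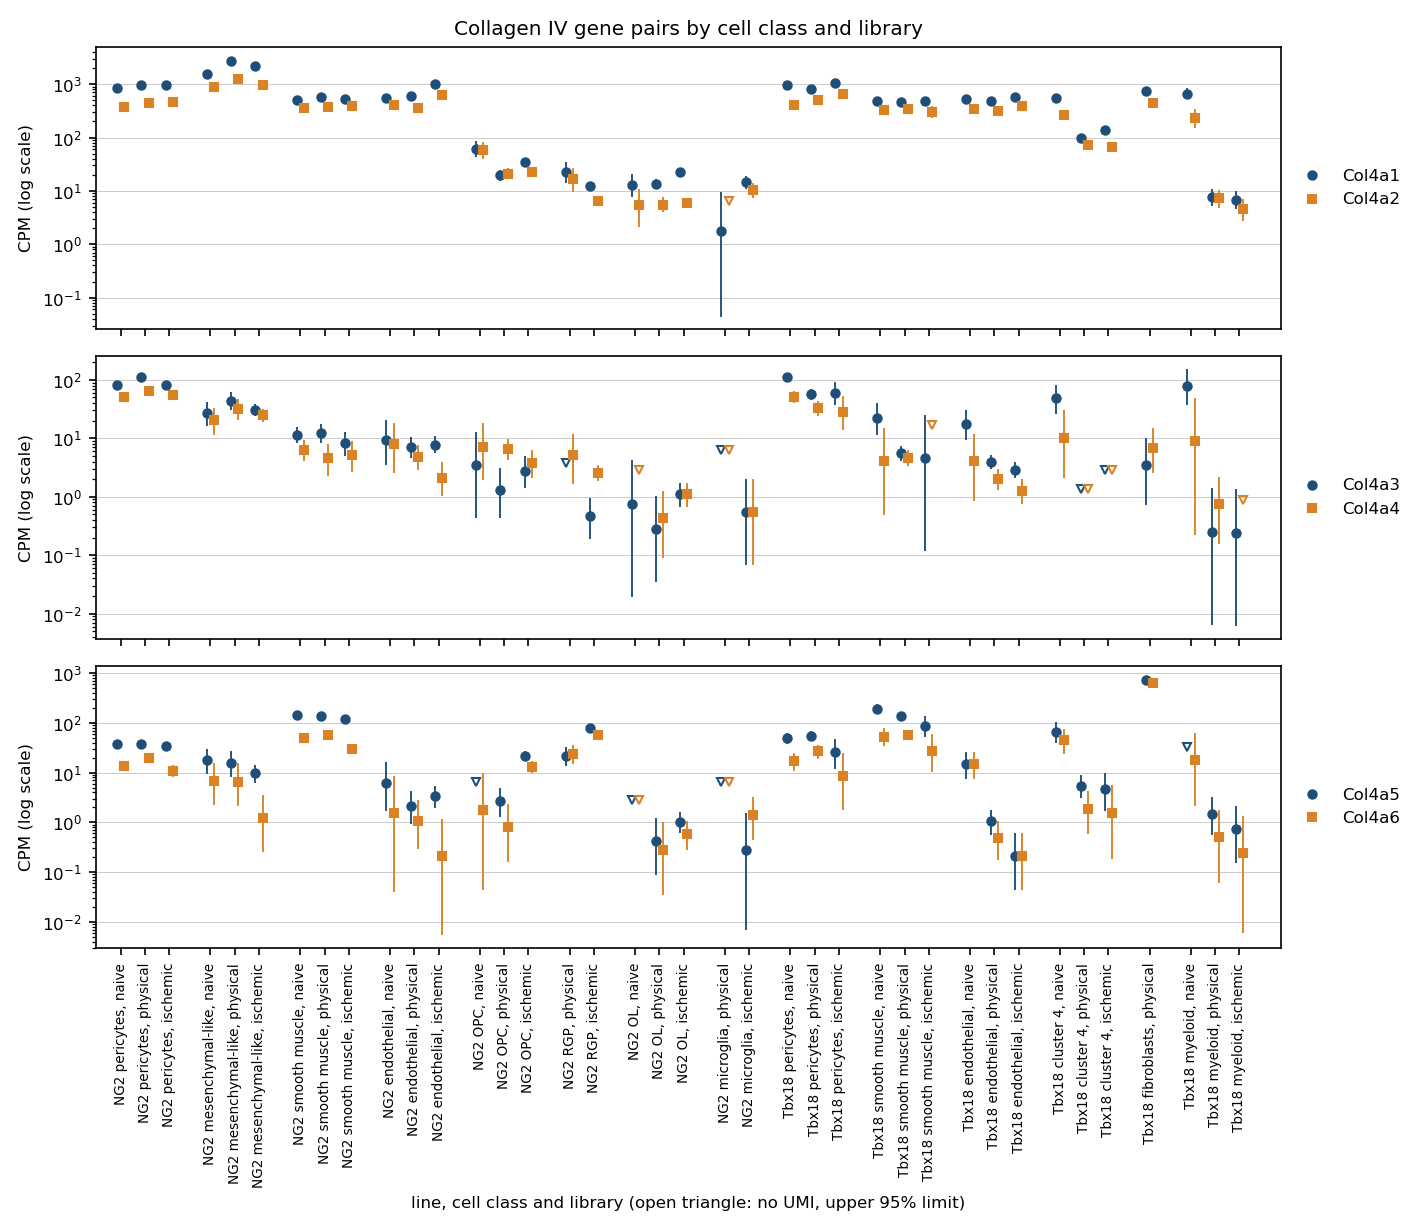
Levels of the 3 collagen IV gene pairs (CPM, log axis, with 95% Poisson intervals of counting error) by class and library, where open triangles mark the upper limit for 0 UMIs. Of the classes drawn, Col4a3 and Col4a4 are highest in pericytes, at 82.8, 112 and 80.4 CPM for Col4a3 in the NG2 line, and Col4a5 and Col4a6 are highest in fibroblasts, at 714 and 619 CPM.

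Collagen I needs both Col1a1 and Col1a2 for its usual form, yet NG2 mural cells held almost only Col1a2. Col1a2 was 162, 149 and 166 CPM in NG2 pericytes, 241, 282 and 217 CPM in mesenchymal-like pericytes and 125, 123 and 118 CPM in smooth muscle cells. Col1a1 was 0, 0.56 and 0.216 CPM in NG2 pericytes, from 0, 3 and 1 counts beside 2068, 801 and 771 counts of Col1a2. The ratio of Col1a2 to Col1a1 was at least 689 in the naive library, with the 0 set to 3 counts, 267 after physical and 771 after ischemic injury. In mesenchymal-like pericytes Col1a1 had 0, 11 and 3 counts against 178, 214 and 535 of Col1a2. Tbx18 pericytes held Col1a1 at 0.672, 13.5 and 31.2 CPM and Col1a2 at 149, 189 and 230 CPM, which brought the ratio to 14 (8.89 to 23.3) after physical and 7.36 (3.91 to 15.3) after ischemic injury. Both chains stood at similar levels in fibroblasts and in injured cluster 4. Fibroblasts held Col1a1 at 1130 and Col1a2 at 1512 CPM, a ratio of 1.34 (1.23 to 1.45). Cluster 4 held Col1a1 at 75.5, 417 and 1529 CPM and Col1a2 at 154, 401 and 1054 CPM, with ratios of 2.05, 0.963 and 0.69.

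**Figure D4:**
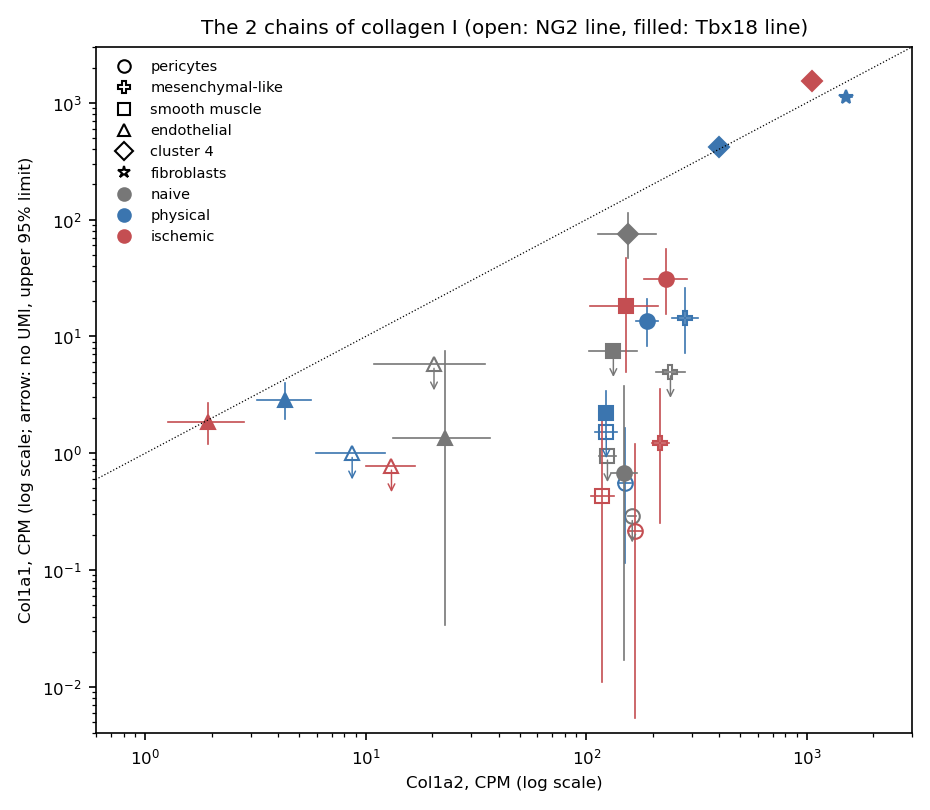
Col1a2 against Col1a1 (CPM, log axes) for each class and library, with marker shape for class, color for condition, and open markers for the NG2 and filled markers for the Tbx18 line. NG2 pericytes lie at 149 to 166 CPM of Col1a2 with at most 0.56 CPM of Col1a1, while the fibroblast and injured cluster 4 points lie near equal levels.

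The other fibrillar collagens divided the mural classes further. Col3a1, which forms the fine fibrils of vessel walls, was 42.3, 50 and 45.1 CPM in NG2 pericytes, 48.9, 62.2 and 54.5 CPM in smooth muscle cells and 357, 474 and 164 CPM in mesenchymal-like pericytes. Col5a2, a chain of the collagen V that starts fibrils, was 62.8, 81.7 and 73.3 CPM in NG2 pericytes. Its partner Col5a1 reached only 0.781, 1.49 and 0.862 CPM there, and 16.2, 14.5 and 13 CPM in mesenchymal-like pericytes. As with collagen I, NG2 pericytes thus held far more of 1 chain than of another. Col27a1, a fibrillar collagen of cartilage, was 93.4, 99.8 and 91.4 CPM in NG2 pericytes and 22.9, 24.7 and 26 CPM in smooth muscle cells. Col11a1, another cartilage collagen, was 40.4, 104 and 404 CPM in OPCs and 266 and 279 CPM in RGPs. For the collagen VI chains, the NG2 pericytes held no Col6a1 count in any library beside 71, 25 and 39 counts of Col6a2.

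Endothelial cells were compared with pericytes of the same library to see which collagens each held. A gene entered with at least 10 counts over both sides in every library, and was past the 2-fold cut where the CPM + 1 differed at least 2-fold the same way in every library with the higher side at 10 CPM or more. In the NG2 line, 1 collagen was higher and 12 lower of 23 that entered, where 8.89% of all genes entered were higher and 9.47% lower. In the Tbx18 line 0 were higher and 9 lower of 15, against 8.72% and 9% of all genes. The collagen higher in NG2 endothelial cells was Col18a1, the multiplexin that holds endostatin, at 47, 27.4 and 34.2 CPM against 4.45, 5.23 and 8.19 CPM in pericytes. Its folds over pericytes were 10.6 (6.55 to 16.7), 5.24 (3.42 to 8.27) and 4.17 (2.91 to 6.1). In the Tbx18 line Col18a1 was 5.21-fold higher in endothelial cells of the naive library but 3.55-fold and 3.38-fold lower after physical and ischemic injury, as Tbx18 pericytes held 6.72, 119 and 145 CPM of it.

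The 9 collagens lower in endothelial cells of both lines were Col1a2, Col3a1, Col4a3, Col4a4, Col4a5, Col5a2, Col5a3, Col8a1 and Col27a1, and Col4a6, Col7a1 and Col26a1 joined them in the NG2 line. Col1a2 was 20.4, 8.67 and 13.1 CPM in NG2 endothelial cells, 7.93-fold, 17.2-fold and 12.7-fold below pericytes. Tbx18 endothelial cells held it at 22.9, 4.3 and 1.92 CPM, 6.48-fold, 43.8-fold and 120-fold below. The distance was thus smallest in both naive libraries, whose endothelial cells carried the pericyte list at 5475 CPM in the NG2 and 3915 CPM in the Tbx18 line, against 3726 and 3312 CPM in the injured NG2 libraries and 359 CPM after physical injury in the Tbx18 line. The part of pericyte RNA was not tested. Col27a1 was 19.8-fold, 9.21-fold and 11.7-fold lower in the NG2 line. Col14a1, a FACIT collagen, was 48.6, 20.9 and 9.7 CPM in NG2 endothelial cells, 124-fold above pericytes in the naive library (48 to 410) and at least 37.3-fold after physical injury, and missed the 10 CPM minimum after ischemic injury. In these genes 2 clusters of naive cells were unlike. In the table that joins the naive libraries, a cluster of 131 cells with 2 endothelial markers among its 10 leading genes held Col18a1 at 1.2 CPM (0.0304 to 6.69) and Col14a1 at 3.6 CPM (3 counts). Another of 52 cells, led by Gkn3, Stmn2 and Vegfc and with 0 endothelial markers among its 10 leading genes, held more of both. Col18a1 was 125 CPM (93.3 to 163) and Col14a1 132 CPM (99.5 to 171) there. Col4a1 was 560 and 529 CPM in these clusters, picked after their values were seen. The part of either cluster in the endothelial classes of the lines was not tested.

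Smooth muscle cells and pericytes, the mural cells of arterioles and capillaries, differed in both directions. In the NG2 line 4 collagens were higher and 8 lower in smooth muscle cells of 24 that entered, beside 5.77% and 7.82% of all genes. In the Tbx18 line 1 was higher and 5 lower of 12, beside 3.08% and 6.43%. Col4a5 was the one higher in both lines, by 3.75-fold, 3.68-fold and 3.5-fold in the NG2 line and 3.91-fold, 2.57-fold and 3.41-fold in the Tbx18 line. Col18a1 was 104, 142 and 123 CPM in NG2 smooth muscle cells, 23.4-fold (17.7 to 31.5), 27.3-fold and 15-fold above pericytes. Col14a1 was 28.8, 21 and 20.3 CPM there, 73.7-fold, at least 37.5-fold and 94.3-fold above. These and Col4a6 made up the higher side. The lower collagens of both lines were Col4a3, Col4a4, Col5a2, Col5a3 and Col27a1. Col4a3 was 7.16-fold, 9.05-fold and 9.78-fold lower in the NG2 line, where Col26a1, at 19.1, 26.9 and 16.4 CPM in pericytes, was 18.5-fold, 16.3-fold and 37.9-fold lower. Col7a1, which forms anchoring fibrils, and Col28a1 were also lower there, from 10.9, 12.7 and 14.9 CPM and 12.7, 16.2 and 14.9 CPM in pericytes.

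Mesenchymal-like pericytes of the NG2 line were set against the other pericytes of their library. Of 23 collagens that entered, 5 were higher and 2 lower, against 1.36% and 0.793% of all genes. Scaled by TMM factors the split was 4 higher and 3 lower. Col18a1 was 134, 129 and 97.6 CPM in these cells, 30.1-fold (21.5 to 42.4), 24.7-fold and 11.9-fold above pericytes. Col3a1 was 8.45-fold (7.26 to 9.81), 9.48-fold and 3.64-fold higher, and Col5a1 20.8-fold, 9.7-fold and 15-fold higher. Fibrillar, multiplexin and short-chain collagens were thus all among the higher ones. Col8a1, a short-chain collagen of vessel walls, was 2.2-fold, 3.51-fold and 2.36-fold higher, and Col4a2 2.39-fold, 2.83-fold and 2.11-fold. Col4a3 (3.06-fold, 2.57-fold and 2.65-fold) and Col4a5 (2.15-fold, 2.35-fold and 3.55-fold) were lower.

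Fibroblasts of the Tbx18 line could be compared with pericytes in the physical injury library alone, where 116 fibroblasts and 433 pericytes were found. Of 30 collagens that entered, 20 were higher and 5 lower, beside 13.5% and 11.9% of all genes. The median log2 ratio was 2.88 over the collagens and 0.01 over all genes entered. Of the fibroblasts, 98 carried at least 2 markers of another class, the pericyte list summed to 3534 CPM in them, and the part of those transcripts was not tested. The multiplexin Col15a1 was 850 CPM in fibroblasts from 737 counts and had 1 count in pericytes, a 1.26e+03-fold difference (226 to 4.99e+04). Col13a1, a transmembrane collagen of cell adhesions, was 437 CPM and 216-fold higher (73.4 to 1.05e+03). These 2 genes were also among the 10 leading genes of the fibroblast cluster, so their place on the list was partly set by how the cells were grouped.

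Fibroblast fibrils were represented at nearly every step. Col1a1 was 83.9-fold (54 to 138) and Col1a2 8.01-fold (7.04 to 9.15) above pericytes, Col3a1 2.16-fold (1.92 to 2.44), Col5a1 5.24-fold, Col5a2 2.38-fold and Col11a1 94.1-fold. The FACIT collagen Col12a1, which links fibrils to the surrounding matrix, was 669 CPM and 199-fold higher (84.6 to 614). Col22a1, at 66.9 CPM, and Col16a1, at 65.7 CPM, were 99.3-fold and 9.76-fold higher. All 3 main chains of collagen VI, a microfibril of the pericellular space, were on the higher side, with Col6a1 15.4-fold, Col6a2 7.19-fold and Col6a3 30-fold. Col23a1, a transmembrane collagen, was 474 CPM and 117-fold higher (53.4 to 321), and Col26a1 186 CPM and 27.6-fold higher. Col4a6 was 23-fold (16.7 to 32.5) and Col4a5 13.1-fold (10.4 to 16.7) higher, Col7a1 11.5-fold and Col18a1 2.32-fold (1.9 to 2.83). Col4a3 (16.6-fold, 5.48 to 81.9), Col4a4 (4.67-fold, 2 to 13.4), Col8a1 (5.84-fold, 3.22 to 11.6) and Col14a1 (10.8-fold) were lower, and Col28a1 had 0 counts against 16, at least 3.12-fold lower. The same collagen IV gene family thus held genes on both sides of the pericyte level.

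Cluster 4 of the Tbx18 line was compared with pericytes in both injured libraries. Of 24 collagens that entered, 11 were higher and 8 lower, beside 11.7% and 23.3% of all genes. The transmembrane collagen Col25a1, known from amyloid plaques and from motor neuron development, was 815 CPM after physical and 391 CPM after ischemic injury, 202-fold (92.5 to 550) and 45.9-fold (15.6 to 223) above pericytes. Col25a1 was among the 10 leading genes of this cluster, so its place was partly set by how the cells were grouped. In physical injury fibroblasts it was 2.31 CPM. Col23a1 was 216 and 123 CPM, 53.5-fold and 43.3-fold above pericytes. The other higher collagens were Col1a1 (30.9-fold and 49-fold), Col1a2 (2.13-fold and 4.59-fold), Col6a1 (24.4-fold and at least 21.7-fold), Col6a2 (12.6-fold and 31.8-fold), Col6a3 (12.8-fold and at least 4.33-fold), Col8a2 (at least 20.3-fold and 3.79-fold), Col11a1 (60.9-fold and 25.4-fold), Col12a1 (47.2-fold and at least 17.5-fold) and Col16a1 (4.18-fold and 2.3-fold). They span fibrillar, FACIT, collagen VI, short-chain and transmembrane groups. The lower ones included the main basement membrane chains, with Col4a1 at 97.4 and 138 CPM (8.33-fold and 7.72-fold lower), Col4a2 (6.88-fold and 9.81-fold) and Col4a3, which had no count and was at least 52.1-fold and 25.9-fold lower. Col4a4, Col4a5, Col5a3, Col18a1 and Col27a1 were lower too.

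Within cluster 4 the injured libraries also stood apart in a few collagens. Col1a1 was 3.67-fold (3.41 to 3.95), Col1a2 2.63-fold and Col5a1 2.65-fold higher after ischemic than after physical injury, whereas Col25a1 was 2.08-fold (1.89 to 2.3) lower. Naive cells of the cluster are no baseline for these values, since they held Vtn at 7549 CPM against 37.7 and 9.98 CPM in the injured libraries. The transcripts of collagen I were concentrated in a subset of cells. After physical injury 182 of 349 cells had a Col1a1 UMI, and 157 of these 182 (86.3%) had a Col1a2 UMI, against 28.1% of the rest. Slc47a1, a gene of the fibroblast list, was found in 54.9% of the Col1a1 cells and 24.6% of the rest. It was also among the 10 leading genes of cluster 4, and was found in 0 of the 116 fibroblasts of that library. The myeloid gene C1qa was found in 3.85% and 23.4%, and the smooth muscle gene Acta2 in 46.2% and 47.3%. Col25a1 was found in 37.4% of the Col1a1 cells and 21.6% of the rest. After ischemic injury, 80 of 143 cells had a Col1a1 UMI. There the shares were 31.25% and 15.9% for Slc47a1, 5% and 25.4% for C1qa and 60% and 31.7% for Acta2.

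RGPs were compared with OPCs, the class most like them by markers, in the injured NG2 libraries. Of 22 collagens that entered, 4 were higher and 1 lower in RGPs, beside 5.78% and 7.46% of all genes, so the share lower did not stand out. Col4a6 was 23.7 and 57.7 CPM in RGPs, 29.9-fold and 4.38-fold above OPCs. Col12a1 was 11.3 and 60.4 CPM, 42.9-fold and 5.55-fold higher. Col4a5 was 21.6 and 77.3 CPM, 8.19-fold and 3.55-fold higher, and Col18a1 69.1 and 91.6 CPM, 3.31-fold and 2.3-fold higher. The cells differed in depth, with a median of 12792 and 37573 UMIs in RGPs and 12390 and 11764 in OPCs. When every cell was thinned to 1000 UMIs, the mean log2 ratio was -0.40 for Col4a5 and -1.84 for Col18a1, so these 2 directions did not hold. Thinning left out 24 of the 76 physical injury RGPs and kept few UMIs of the others, so these thinned ratios are imprecise. Over all collagens that entered, the count past the cut either way was 1 when thinned and 1 at a minimum of 50 CPM. Under the filters of the study's methods, applied again to the deposited cells, the count was 2. The Col4a6 and Col12a1 folds after physical injury rest on few OPC counts and carry no intervals here. Col11a2, a cartilage fibril chain, was 43.1 and 35.7 CPM in OPCs and 8.25 and 3.37 CPM in RGPs, 5.22-fold and 10.6-fold lower. Col9a3, the FACIT chain of highest level in OPCs at 125, 139 and 136 CPM, was 80.4 and 37.3 CPM in RGPs.

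For NG2 pericytes the question was whether injury moved their collagens. None of 28, 28 and 27 collagens that entered was past the 2-fold cut for physical against naive, ischemic against naive and ischemic against physical, beside 0.297%, 0.524% and 0.775% of all genes. Read alone, clusters 0, 1 and 2 gave 2, 7 and 2 over all 3 contrasts, and pericytes thinned to 1000 UMIs gave 3. The background was itself low, so a count of 0 says little about the collagens as a group. The largest level, Col4a1, was 853, 947 and 945 CPM. Col5a3, at 42, 76.3 and 73.5 CPM, lay below the cut. The naive library serves in both injury contrasts of each class, so these are not independent.

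NG2 smooth muscle cells gave the same count, 0 of 24, 21 and 19 collagens past the cut, beside 0.803%, 0.886% and 1.41% of all genes. Tbx18 smooth muscle cells had 5 of 26, 6 of 12 and 6 of 25 past it, beside 10.7%, 20% and 14.5%, with only 63 naive and 47 ischemic cells. Col8a1 was 14.3, 60.5 and 82.4 CPM there, 4.23-fold (2.04 to 10.6) higher after physical and 5.77-fold (2.3 to 16.3) higher after ischemic injury. Col18a1 was 63.3, 144 and 64.1 CPM, 2.28-fold higher after physical injury. In the same cells endothelial markers summed to 75.5, 217 and 1108 CPM, pericyte markers to 8208, 2755 and 8456 CPM and smooth muscle markers to 23011, 37022 and 29892 CPM. Without cells that carried 2 markers of another class, the log2 ratio of Col8a1 was 2.13 after physical and 2.73 after ischemic injury. In the NG2 line Col8a1 was 48.9, 84 and 71.8 CPM in smooth muscle cells, under the cut.

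In NG2 endothelial cells 3 of 18, 1 of 16 and 1 of 22 collagens were past the cut, beside 5.30%, 5.79% and 1.35% of all genes. Col14a1 stood in all 3 contrasts, at 48.6, 20.9 and 9.7 CPM. Its level stepped down from naive to physical to ischemic. Col14a1 was unlike in the 2 clusters of naive cells given above, and their part in the endothelial cells of each library was not tested. Col14a1 was 2.33-fold lower after physical and 5.01-fold lower after ischemic injury (3.07 to 8.07), and 2.15-fold lower after ischemic than after physical injury. After physical injury Col1a2 was also 2.35-fold lower. It was 0.56 higher on the log2 scale once the cell filters of the study's methods were applied again to the deposited cells. Pericyte markers summed to 5475, 3726 and 3312 CPM in naive, physical and ischemic NG2 endothelial cells, and their part was not tested. Col27a1, from 3 naive and 40 physical injury counts, was 2.3-fold (0.734 to 11.6) higher after physical injury, a fold whose interval spans no difference. In Tbx18 endothelial cells Col14a1 was 40.4, 23.6 and 23.3 CPM. There, 5 of 23, 6 of 19 and 1 of 25 collagens were past the cut, beside 7.37%, 7.09% and 0.261%. With all cells, Col1a2, Col4a3, Col4a5 and Col4a6 were lower in both injured libraries, and Col27a1 after physical injury. Vtn was 1192, 38.8 and 5.46 CPM in the same cells, and without cells that carried 2 markers of another class Col1a2, Col4a3 and Col4a6 were no longer lower after physical injury, with log2 ratios of 2.22, 0.11 and 0.16. After ischemic injury the ratios without those cells were 1.47 for Col1a2, 0.3 for Col4a6 and -0.25 for Col4a3, so that of the 4 genes Col4a5 alone stayed lower past 2-fold in both, at -1.49 and -1.93. Col6a6, a collagen VI family chain, was 1.35, 6.58 and 16.4 CPM, 12.2-fold higher after ischemic injury than in naive cells and 2.49-fold (1.93 to 3.25) higher than after physical injury.

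OPCs of the NG2 line were read after their collagen levels had been seen. After physical injury 2 of 20 collagens were past the cut on the higher side, beside 2.93% of all genes, and after ischemic injury 6 of 27, beside 5%. Collagens were also past the cut on the lower side, Col4a1, Col5a3 and Col25a1 among them, and that side is not counted here. Pericyte markers summed to 1860, 249 and 301 CPM in naive, physical and ischemic OPCs, and their part was not tested. Without cells with other markers, Col4a1 was no longer lower after physical injury. Col11a1 was 40.4, 104 and 404 CPM, 2.56-fold (1.68 to 4.09) and 9.99-fold (6.64 to 15.8) above naive. Col20a1, a FACIT collagen, was 8.79, 28.5 and 68.4 CPM, 3.25-fold (1.35 to 10.2) and 7.78-fold (3.29 to 24.1) above. Both, picked after their levels were seen, followed the order naive, physical, ischemic. Col16a1 was 28.1, 29.6 and 77 CPM, 2.74-fold (1.66 to 4.85) higher after ischemic injury. Col4a6 (7.49-fold), Col4a5 (at least 4.13-fold) and Col12a1 (at least 2.06-fold) were also higher after ischemic injury. In the same cells the radial glia gene Fabp7 was 457, 576 and 689 CPM, the cell cycle gene Top2a 15.8, 4.49 and 47.1 CPM and the endothelial gene Cldn5 0, 1.32 and 22.5 CPM. Without OPCs with cell cycle UMIs the log2 ratio of Col11a1 was 1.36 after physical and 3.08 after ischemic injury, against 1.34 and 3.29 with all OPCs. With the cell filters of the study's methods applied again to the deposited cells, the value after physical injury was 0.61.

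Tbx18 pericytes were likewise read after their levels had been seen, and here collagens were past the cut. On the higher side there were 6 of 27 after physical injury, beside 7.22% of all genes, and 5 of 22 after ischemic injury, beside 8.53%. Col3a1 was 50.4, 327 and 411 CPM, 6.49-fold (5.08 to 8.39) and 8.16-fold (6.13 to 10.9) above naive. Col18a1 was 6.72, 119 and 145 CPM, 17.7-fold (9.42 to 37.6) and 21.5-fold (10.8 to 47.6) above. Col8a1 was 26.9, 80.8 and 139 CPM, 3.01-fold (2.09 to 4.41) and 5.17-fold (3.34 to 8.06) above. In these 3 genes, picked after their levels were seen, both injured libraries lay above the naive one. Their intervals cover counting error only and add no separate support. Col1a1 (20-fold and 46.4-fold) and Col5a1 (5.34-fold and 9.85-fold) were higher in both, and Col14a1 after physical injury (37.1-fold). The Col1a1 folds rest on few cells, as 1 naive, 13 physical and 5 ischemic pericytes held a Col1a1 UMI. An Acta2 UMI was found in 11 of these 13 and 4 of these 5 cells, against 43.3% and 19.8% of the other pericytes of those libraries. Other collagens were lower in both injured libraries, such as Col26a1 at 33.6, 6.74 and 2.84 CPM, Col28a1 at 38.3, 10.8 and 2.84 CPM and Col27a1 at 104, 47.8 and 36.9 CPM. That lower side is not counted here.

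Other transcripts moved with these values. In Tbx18 pericytes, Acta2 of smooth muscle was 96.8, 1615 and 573 CPM, Cldn5 of endothelial cells 4.04, 183 and 446 CPM, and Vtn 12420, 7714 and 8131 CPM, and the median depth was 6547, 2540 and 3792 UMIs. Without pericytes that held an Acta2 or Cldn5 UMI, the log2 ratio of Col3a1 was 1.65 after physical and 1.5 after ischemic injury, against 2.67 and 3.00 with all cells. For Col18a1 it was 3.37 and 3.78, against 3.96 and 4.24. For Col8a1 it was 0.51 and 1.85, against 1.55 and 2.33, so that Col8a1 after physical injury was under the cut. The naive Tbx18 pericytes numbered 226 and the ischemic ones 86, and the difference of the injury effect between both lines was not tested. The pericyte classes of the lines were also unlike. Mesenchymal-like pericytes were kept apart in the NG2 line, while the Tbx18 class was a single cluster with no such split. In the NG2 line, Col3a1, Col18a1, Col5a1 and Col8a1 were higher in mesenchymal-like than in other pericytes. The part of such cells in the Tbx18 class was not tested.

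**Figure D5:**
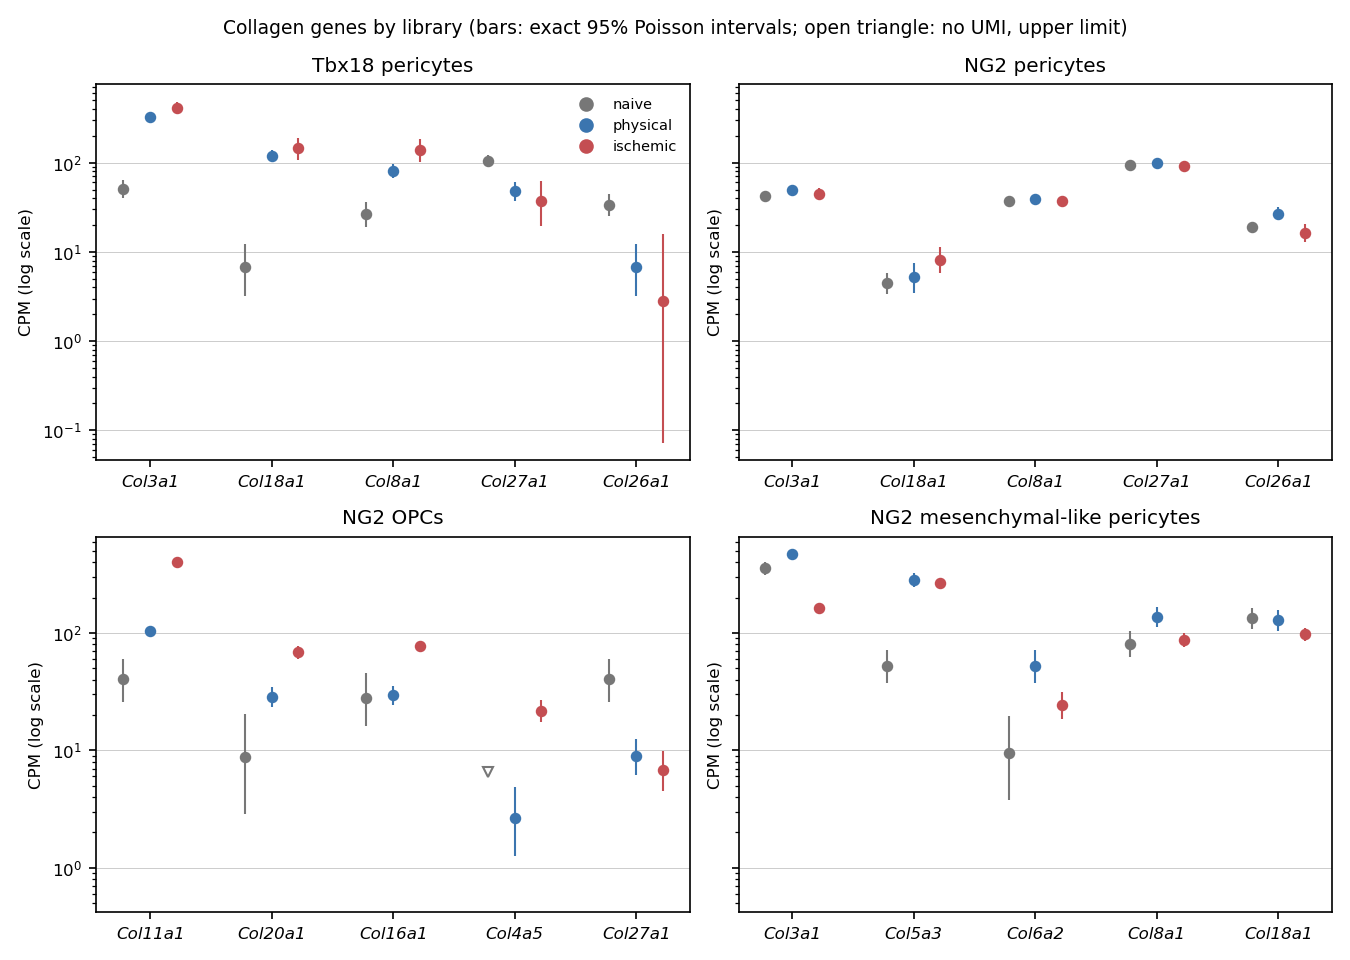
Levels of 5 collagens each (CPM, log axis, with 95% Poisson intervals of counting error) in naive, physical injury and ischemic injury libraries for Tbx18 pericytes, NG2 pericytes, NG2 OPCs and NG2 mesenchymal-like pericytes. Col3a1 goes from 50.4 to 327 and 411 CPM in Tbx18 pericytes and is 42.3 to 50 CPM in NG2 pericytes. Mesenchymal-like cells are kept apart from pericytes in the NG2 line only. Col11a1 goes from 40.4 to 104 and 404 CPM in OPCs.

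Mesenchymal-like pericytes of the NG2 line held Col5a3 at 52.7, 283 and 269 CPM, 5.37-fold (3.8 to 7.76) and 5.1-fold above naive. Their Col6a2 was 9.47, 52.7 and 24.3 CPM and their Col3a1 357, 474 and 164 CPM. Col5a3 was thus alike in both injured libraries, and Col3a1 lowest after ischemic injury. Acta2 was 281, 2167 and 1062 CPM in the same cells, and its part was not tested. Fibroblasts of the ischemic library, only 10 cells, had 10 of 25 collagens past the cut against physical injury, 7 higher and 3 lower, beside 32.8% of all genes. With TMM factors this split was 4 higher and 3 lower, and no gene is singled out from so few cells.

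Naive pericytes of the lines were compared in the table that joins the naive libraries. Of 27 collagens that entered, 1 was past the cut, a share near the 3.94% of all genes. This was Col28a1, a collagen VI relative known from peripheral nerve, at 43.8 CPM in the Tbx18 and 14.1 CPM in the NG2 line, 3.11-fold (2.31 to 4.14). Col28a1 was 56.1 CPM in cluster 5 of these naive cells, against 6.60 to 24.1 CPM in clusters 0 to 3. The part of cluster 5 in the difference between lines was not tested. The remaining collagens of naive pericytes lay within the cut between lines.

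Partners of the collagens were read from 5 lists, with 17 basement membrane partners, 17 genes of collagen synthesis and folding, 13 of procollagen processing and cross-linking, 8 receptors and 7 of collagen degradation. In fibroblasts against pericytes, 4 of 14 basement membrane partners were higher and 2 lower, 5 of 8 processing genes higher and 1 lower, 3 of 4 degradation genes higher and 1 lower, 2 of 7 receptors higher and 3 lower, and 3 of 16 synthesis genes higher and 2 lower, where 13.5% of all genes entered were higher and 11.9% lower. The share of synthesis genes was near that of all genes. The laminin chain Lama1 led with a log2 ratio of 8.02, followed by the gelatinase Mmp2 (5.13) and the lysyl oxidase relative Loxl1 (3.64). The prolyl 3-hydroxylase P3h2 was lowest (-6.52). Lama1 was also among the 10 leading genes of the fibroblast cluster, so its place was partly set by how the cells were grouped. In NG2 endothelial cells 7 of 14 basement membrane partners, 7 of 16 synthesis genes, 4 of 6 receptors, all 3 degradation genes and 3 of 4 processing genes were below pericytes, beside 9.47% of all genes. The laminin chains Lama3 (4.44) and Lama5 (3.38) were the leading genes above, as mean log2 ratios. The procollagen enhancer Pcolce (-4.20) and Lama2 (-3.77) were the leading ones below. Lama2 was also among the 10 leading genes of 1 of the NG2 pericyte clusters. In the Tbx18 line 7 of 14 partners, 4 of 16 synthesis genes, 5 of 6 receptors, 2 of 3 degradation genes and 3 of 4 processing genes were below, beside 9% of all genes.

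Smooth muscle cells of the NG2 line held 8 of 13 basement membrane partners below pericytes and 1 above, Lama5 (5.25), beside 7.82% and 5.77% of all genes. The cross-linking enzyme Lox (4.80) and the procollagen protease Adamts2 (3.43) were among 3 of 8 processing genes above. In injured cluster 4, 8 of 11 basement membrane partners were below pericytes and none above, led by Lamc3 (-7.01), beside 23.3% and 11.7% of all genes, and 4 of 8 processing genes above, led by the procollagen protease Tll1 (6.51) and Loxl1 (4.03). The collagen-binding integrin chain Itga1 was below pericytes (-7.03). In mesenchymal-like pericytes only Loxl2, of all list genes that entered, was past the cut (2.73). Loxl2 was also among the 10 leading genes of that cluster, so its place was partly set by how the cells were grouped. No gene of the lists was past the cut by injury in NG2 pericytes. In Tbx18 pericytes 4 of 7 processing genes were higher after physical and 3 of 5 after ischemic injury, beside 7.22% and 8.53% of all genes, with Adamts2 (3.71) leading the first and Lox (4.01) the second. Both stood above pericytes in smooth muscle cells of the NG2 line, while neither was past that cut in every library of the Tbx18 line. Smooth muscle markers summed to 1667, 5778 and 2792 CPM in naive, physical and ischemic Tbx18 pericytes. Their part was not tested. Tbx18 smooth muscle cells had 6 of 12 basement membrane partners below pericytes and 1 above, Lama5 (4.17), beside 6.43% and 3.08% of all genes. RGPs against OPCs had 2 of 5 processing genes below, and of 10 partners Sparc above (1.55) and Lamc1 below (-1.37), beside 5.78% of all genes above and 7.46% below. In OPCs 2 of 6 processing genes were higher after physical and 2 of 7 after ischemic injury, Adamts2 and Pcolce2 both times, beside 2.93% and 5% of all genes. Genes of the lists were also lower in injured OPCs. Led by the processing gene Pcolce (-2.87), Lamc3 (-1.98) and Lama2 (-1.88) were lower after physical injury. After ischemic injury Lama2 (-2.29), Lamc3 (-2.02) and Nid1 (-1.75) were lower. Pericyte markers summed to 1860, 249 and 301 CPM in naive, physical and ischemic OPCs. The part of pericyte RNA in these lower genes was not tested.

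Shares of cells with a UMI were read beside the levels. Col1a1 was found in 87.9% of physical injury fibroblasts (80.6 to 93.2, median depth 7388 UMIs) and 52.1% of physical injury cluster 4 cells (46.8 to 57.5, 6756 UMIs), against 1.51% of endothelial cells of that library (6702 UMIs), taken as the class that should lack it. Thinned to 1000 UMIs per cell, the shares were 57.5%, 23.7% and 0.403%. In physical injury Tbx18 pericytes 3% of cells had a Col1a1 UMI (1.61 to 5.08, 2540 UMIs), and 0.568% when thinned, close to the endothelial share, so that the higher Col1a1 level of these cells rests on few of them. Col25a1 was found in 29.8% (25 to 34.9) of physical and 14% (8.76 to 20.8) of ischemic cluster 4 cells, and in 24.6% and 12.9% when thinned, with 0.615% and 0.134% of endothelial cells (6702 and 8981 UMIs) beside it. Col1a2 was found in 42.1%, 46% and 43.8% of NG2 pericytes and 14.8%, 13.4% and 15.1% when thinned, against 4.95%, 5.2% and 7.28% of NG2 endothelial cells and 3%, 0.499% and 0.223% when thinned. Median depths were 3821, 4684 and 4202 UMIs in these pericytes and 5720, 7522 and 8622 UMIs in these endothelial cells. The Col1a2 share of pericytes was thus clear of the endothelial one at either depth. Col11a1 was found in 20%, 41.9% and 63.3% of naive, physical and ischemic OPCs, and in 3.09%, 6.29% and 19.6% when thinned, against 0% (exact limit 3.59%), 0% (0.909%) and 1.33% of endothelial cells of those libraries (median depths of 4692, 12390 and 11764 UMIs in OPCs). Col3a1 was found in 21.2%, 23.3% and 30.2% of Tbx18 pericytes, and in 1.79%, 13.1% and 24% when thinned, against 1.89%, 1.12% and 0.874% of endothelial cells. For Col3a1 and Col11a1 the order of the conditions was the same with and without thinning. The unthinned Col3a1 shares rose far less than its level in Tbx18 pericytes. These shares of both genes are given without intervals, so their order is a description only.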

How the data were processed

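Single-cell UMI counts of tdT+ mouse cortical cells were used as the authors deposited them, in 3 tables of whole-number counts per gene and cell (both naive libraries, the NG2 line, the Tbx18 line) with the cluster of each cell. The labels name Cell Ranger 7.0.0 and mm10, and the authors filtered cells and clustered them in Seurat after integration. Per the labels, 6 libraries gave 1 sample per line and condition. No sample column was left unmapped, and samples were grouped by GEO's labels.

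Counts were summed per gene over the cells of a class and library (Python 3.11.15, numpy 2.4.6, pandas 2.3.3, scipy 1.17.1, matplotlib 3.10.9) and scaled to CPM, with an exact Poisson interval for each count. Ratios were taken on CPM + 1 for the log2 scale and the cut, and folds with their exact conditional intervals on CPM. A gene entered with 10 counts over both sides and was past the cut at 2-fold with 10 CPM on the higher side. A count of 0 was set to 3 counts for a bound. Log2 values of classes compared in several libraries are means over libraries. No doublet caller was run. No test was made, as each group is 1 library. Library depth, from 3153996 to 54276245 UMIs, sets the precision of rare classes. TMM factors came from edgeR 4.0.16 (R 4.3.3). The scripts were tested on simulated counts.

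The members and lists were chosen with earlier results of these data known. Named genes were the collagens at 50 CPM or more in a class and library of 20 cells, others where past the cut, and the leading genes of the partner lists. The comparisons of OPCs, Tbx18 pericytes and mesenchymal-like pericytes across conditions were added after their levels were seen. Alternatives were a 50 CPM minimum, no minimum, a pseudocount of 0.1 CPM, TMM factors, the mean over cells, and cells thinned to 1000 UMIs. Others left out the deepest 5% of cells or cells with 2 markers of another class. The filters of the study's methods (at most 12% mitochondrial counts, 200 genes and 2 SD) were also applied again, to the deposited cells. Upstream windows of 35 of the 44 genes were in the RefSeq table used.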

Additional observations from a re-analysis of the deposited data

Results flagged for a closer look

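Col27a1, a fibrillar collagen, went in opposite directions in endothelial cells of the lines after physical injury. The log2 ratio of physical injury to naive was 1.05 in the NG2 line, from 40 and 3 counts, and -2.64 in the Tbx18 line, from 11 and 8 counts. With 1 library on each side the difference between lines was not tested. In the NG2 line the ratio was -1.65 once cells were thinned to 1000 UMIs. Naive Tbx18 endothelial cells also carried the pericyte gene Vtn at 1192 CPM, against 38.8 CPM after physical injury, and the part of pericyte RNA was not tested.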

How the results depend on the processing

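Of the comparison counts under all alternatives, 111 stayed within 1.5 times the reported count and 48 did not. Of the single gene ratios 1461 kept their value within the counting interval or the allowed span, 164 moved and 21 changed direction. TMM factors moved no count by over 1.5 times. No paired analysis was possible because each line and condition has 1 library. Leaving out cells with markers of another class was not run for either fibroblast comparison, since 98 of 116 cells carry them. The causes of the changes were not tested.

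With at least 50 CPM on the higher side, the count past the cut was 5 for endothelial cells against pericytes in the NG2 line and 4 in the Tbx18 line, 6 and 3 for smooth muscle cells, 11 for cluster 4, 1 for RGPs against OPCs, and, summed over contrasts of conditions, 0 for NG2 and 0 for Tbx18 endothelial cells, 7 for Tbx18 smooth muscle cells, 7 for OPCs, 8 for Tbx18 pericytes and 0 for the naive lines. With no minimum it was 15 for Tbx18 endothelial cells against pericytes, 12 for RGPs, and by condition 3 for NG2 pericytes, 23 and 32 for NG2 and Tbx18 endothelial cells, 7 and 51 for NG2 and Tbx18 smooth muscle cells, 33 for OPCs, 37 for Tbx18 pericytes, 20 for fibroblasts and 3 for the naive lines. Thinned to 1000 UMIs it was 4 for Tbx18 endothelial cells and 1 for Tbx18 smooth muscle cells against pericytes, 10 for cluster 4, 1 for RGPs, and by condition 3 for NG2 pericytes, 1 and 4 for NG2 and Tbx18 endothelial cells, 5 and 10 for smooth muscle cells, 6 for OPCs, 13 for Tbx18 pericytes and 2 for the naive lines.

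By condition, pericyte clusters 0, 1 and 2 of the NG2 line alone gave 2, 7 and 2. Without the deepest 5% of cells the count was 3 for NG2 endothelial cells, 1 for NG2 smooth muscle cells and 6 for fibroblasts. The filters of the methods gave 2 for RGPs and 1 for NG2 smooth muscle cells, the mean over cells 3 and 1, and a pseudocount of 0.1 CPM 1 for NG2 smooth muscle cells. Without cells with other markers it was 4 for Tbx18 endothelial cells, and without Acta2 or Cldn5 cells 12 for Tbx18 pericytes.

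Directions that turned are given as log2 ratios. Thinning gave -1.84 for Col18a1 and -0.40 for Col4a5 in RGPs against OPCs, -1.65 for Col27a1 in NG2 endothelial cells, 1.77 for Col5a3 (physical), -0.36 for Col3a1 (ischemic), -1.77 for Col6a2 and -1.14 for Col1a1 (ischemic against physical) in Tbx18 smooth muscle cells, 3.52 for Col25a1 and 0.023 for Col5a3 in OPCs, and 0.52 for Col23a1 in ischemic Tbx18 pericytes. Tbx18 endothelial cells without other markers gave 0.11 for Col4a3, 2.22 for Col1a2 and 0.16 for Col4a6 after physical, and 1.47 for Col1a2 and 0.30 for Col4a6 after ischemic injury. The filters of the methods gave 0.56 for Col1a2 in NG2 endothelial cells. The mean over cells gave 0.68 for Col4a3 and -0.0088 for Col28a1 in ischemic Tbx18 smooth muscle cells and 0.38 for Col25a1 in OPCs. Col25a1 in physical OPCs was 0.055 without the deepest 5% of cells, and Col4a1 0.093 without cells with other markers.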

Other observations

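The following collagen values stand outside the comparisons and were picked after they were seen. Col28a1 was among the leading genes of cluster 5 of the table that joins the naive libraries, at 56.1 CPM (45.3 to 68.6). The multiplexin Col15a1 stood at 17.4 and 15.8 CPM in the microglia cluster of the physical and ischemic NG2 libraries, and at 16.4 CPM, from 3 counts, in the 18 naive cells of that cluster. In RGPs, Col12a1 was 5.32-fold, Col4a5 3.57-fold and Col4a6 2.43-fold higher after ischemic than after physical injury, where median depth was 37573 and 12792 UMIs, and Col20a1 was 24.7 CPM after physical and 5.54 CPM after ischemic injury.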
